A study of Phaseolus vulgaris with 6 samples.

Results

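The genes described here are those of common bean (Phaseolus vulgaris) whose annotation, given by homology to A. thaliana, holds the words auxin, indole-3-acetic acid or SAUR, with annotations that also hold F-box left out. The rule found 125 genes among the 19598 of the deposited table, and the 2 genes it left out are auxin receptors, which are described with the other genes of the pathway. The measurements came from developing pods of Voyager and of Albion, navy bean cultivars that differ in seed zinc, with 3 replicates of each and 6 samples in all. According to the study's methods each replicate was a greenhouse pot, pods of a pot were ground whole, and both genotypes received the same fertilization with zinc. The sample labels give a normal zinc concentration for Voyager and a low one for Albion, the head of the table names a high zinc treatment for both, and it was not settled from the sources used here what these entries refer to. The labels give pods of 20 days after anthesis and the methods give an earlier day.

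Auxin, chiefly indole-3-acetic acid, moves from cell to cell through influx carriers of the AUX1/LAX family and efflux carriers of the PIN family. In the nucleus it is bound by F-box receptors together with Aux/IAA repressors, which are then degraded, and this frees the auxin response factors (ARF) to act on their target genes. Among the early targets are Aux/IAA genes themselves, the SAUR genes of cell expansion and the GH3 genes, whose enzymes join auxin to amino acids. Auxin from developing seeds is known to support growth of the surrounding fruit, which in legumes is the pod.

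The table holds 1 value per gene and genotype in FPKM, that is, fragments scaled to the length of the transcript and to the mapped reads, pooled by the authors over the replicates of a genotype. It holds no value of a single sample, so no spread between replicates could be given and no difference below was tested. The values are those of the authors' pooled columns. A difference is given as log2(FPKM + 1) in Voyager minus log2(FPKM + 1) in Albion, and adding 1 understates the change of genes with low FPKM. Genes are called at least 2-fold higher or lower where this difference is 1 or more in size, and at least 1.5-fold where it is 0.58 or more. Calls and counts use the deposited values unless a scaling is named. Over the whole table FPKM summed to 950155 in Voyager and 830694 in Albion, and the depth behind a single value is unknown.

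Most auxin-annotated genes had similar values in pods of both genotypes. On the log2(FPKM + 1) scale 4 of the 125 genes (3.20%) were at least 2-fold higher in Voyager, where 2.55% of all listed genes were, and 1 gene (0.80%) was at least 2-fold lower, where 1.76% of all listed genes were. The 4 higher genes were 2 efflux carriers, a homologue of the influx carrier LAX2 and a SAUR gene listed at 0 in Albion, and the lower gene was a homologue of the Aux/IAA repressor IAA14. With FPKM scaled to the same total the counts became 2 higher and 2 lower, and the efflux carrier Phvul.002G117700 and the LAX2 homologue Phvul.009G120700 were no longer past the limit. At the 1.5-fold limit, as deposited, 15 genes (12.0%) were higher in Voyager, against 6.95% of all listed genes, and 6 genes (4.8%) were lower, against 4.25%. The remaining 104 genes lay within 1.5-fold. These counts depend on the scaling and are not given with equal totals. With equal totals the SAUR genes Phvul.011G038000 (0.48), Phvul.002G303700 (0.55), Phvul.006G116200 (0.48), Phvul.006G015200 (0.49) and Phvul.011G131500 (0.43) fell below the limit. The GH3.9 homologue Phvul.007G106600 (0.50) and the AIR12 homologue Phvul.010G030500 (0.43) did so too. Past it towards Albion came, among others, the ARF5 homologue Phvul.001G008200 (-0.67) and the IAA13 homologue Phvul.003G167700 (-0.63). The SAUR genes Phvul.009G049900 (-0.63) and Phvul.011G037900 (-0.67) also passed it. All 6 lower genes stayed past it, so the excess towards Voyager did not hold. In bulk samples such as whole pods, fewer cells of a type and less RNA per cell cannot be told apart.

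The median difference of the 125 genes was 0.10, beside 0.07 over all listed genes. As deposited, 82 of them (65.6%) were higher in Voyager, as were 61.9% of all listed genes. This split depends on how the genotypes are scaled to each other. With FPKM scaled to the same total in both genotypes, 44.8% of the auxin-annotated genes and 33.4% of all listed genes were higher in Voyager, and with differences centred on the median of all genes the shares were 55.2% and 50%.

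**Figure D1:**
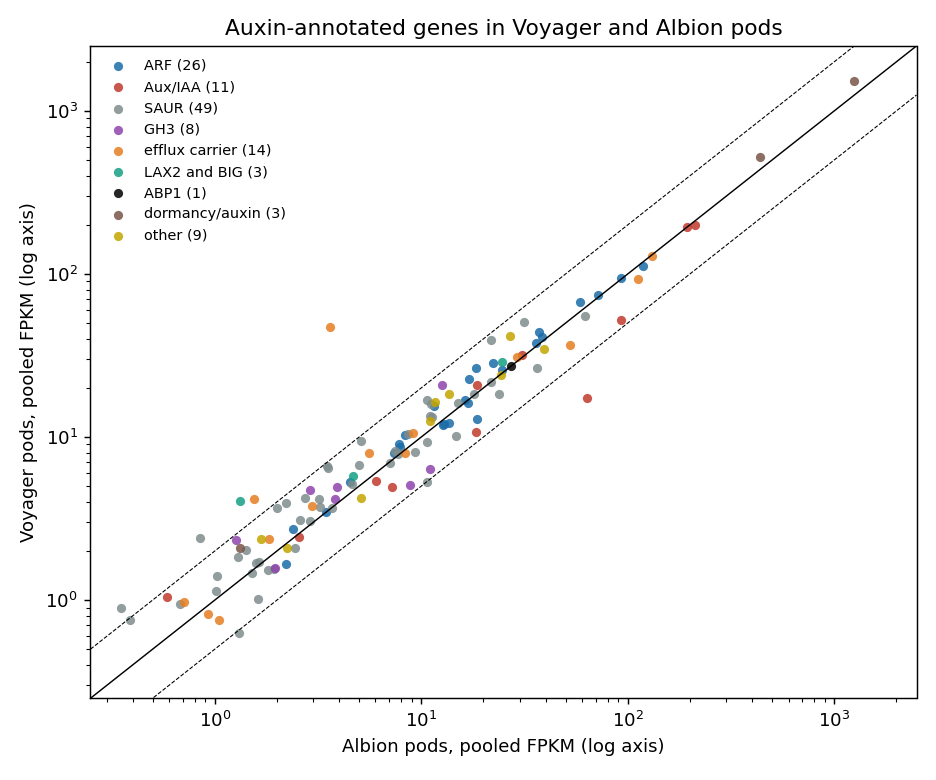
Pooled FPKM of auxin-annotated genes in Voyager (vertical) and Albion (horizontal), both on log axes, with 1 point per gene coloured by role and the number of genes in brackets. The solid line marks equal values and the dashed lines a 2-fold ratio of FPKM without any addition. The SAUR gene listed at 0 in Albion is not drawn. An efflux carrier with 47.2 FPKM in Voyager and 3.61 in Albion lies farthest above the line, and the IAA14 homologue with 17.3 FPKM in Voyager and 63.7 FPKM in Albion lies farthest below it.

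The genes ranged widely in level. In order of the mean of both genotypes, 24 of the 125 lay in the top quartile of all listed genes, over 28.9 FPKM, and 44 lay in the bottom quartile, at 4.04 FPKM or less. Of the 44 genes in the bottom quartile, 25 were SAUR genes. None of the 125 genes shares its locus with another gene of the table.

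Carriers annotated as the auxin efflux family numbered 14 genes. The family takes in the PIN proteins and the PIN-LIKES, which in A. thaliana lie in the endoplasmic reticulum, and genes without a symbol cannot be assigned to either here. The gene with the largest difference of all 125 was one of these, Phvul.002G119300, on chromosome 2 from 24190928 to 24194977, an efflux carrier family gene without a symbol. It had 47.2 FPKM in Voyager and 3.61 FPKM in Albion, a ratio of 13.1 and a difference of 3.39 on the log2(FPKM + 1) scale. By level it was the third of the efflux carriers in Voyager and the eighth in Albion. Another carrier without a symbol on the same chromosome, Phvul.002G117700, from 23823191 to 23830846, had 4.16 FPKM in Voyager and 1.55 FPKM in Albion. Its difference of 1.02 was just past the 2-fold limit, and its FPKM was low in both genotypes.

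The other 12 efflux carriers lay within 1.5-fold as deposited. Among carriers without a symbol Phvul.008G078600 was the highest, with 93.3 FPKM in Voyager and 112 FPKM in Albion, and Phvul.L010300 had 36.9 FPKM in Voyager and 52.4 FPKM in Albion. Phvul.L010300 lies on a scaffold that is not placed on a chromosome, and its difference of -0.50 was the largest towards Albion among the carriers. With equal totals it was past the 1.5-fold limit. Next came Phvul.003G029200, with 31.0 FPKM in Voyager and 29.2 FPKM in Albion.

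The homologue of PIN3, a carrier of gravity and light responses, is Phvul.003G032500 and had 8.0 FPKM in Voyager and 8.38 FPKM in Albion. Homologues of PIN8, which in A. thaliana lies in the endoplasmic reticulum of pollen, were low, with 2.36 FPKM in Voyager and 1.84 FPKM in Albion for Phvul.004G026500 and with 0.76 FPKM in Voyager and 1.05 FPKM in Albion for Phvul.008G043700. Of the remaining carriers without a symbol, Phvul.003G272300 had 7.93 FPKM in Voyager and 5.60 FPKM in Albion, and the lowest by mean among those without a symbol, Phvul.010G051200, had 0.98 FPKM in Voyager and 0.71 FPKM in Albion. By median difference, carriers with a PIN symbol stood at -0.02 and the 7 without one at 0.21.

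On the influx side, both listed homologues of LAX2, an influx carrier of developing veins, were higher in Voyager. Phvul.009G120700, on chromosome 9 from 17914820 to 17918453, had 4.07 FPKM in Voyager and 1.33 FPKM in Albion, a ratio of 3.06 and a difference of 1.12. The other, Phvul.011G034000 on chromosome 11, had 5.73 FPKM in Voyager and 4.65 FPKM in Albion, so the genes were closer to each other in Voyager than in Albion. BIG, a very large protein needed for normal auxin transport, is represented by Phvul.008G025700, which had 28.9 FPKM in Voyager and 24.6 FPKM in Albion. ABP1, an auxin-binding protein of the endoplasmic reticulum, is represented by Phvul.007G168600, with 27.3 FPKM in each genotype.

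Of the Aux/IAA repressors, 11 genes were found by the rule. As deposited 8 of these 11 genes were lower in Voyager, as were 10 with FPKM scaled to the same total and 9 with centred differences. Of all listed genes, 61.9% were higher in Voyager as deposited, 33.4% with equal totals and 50% with centred differences. With equal totals, then, most genes of the whole table lay towards Albion as well. Their median difference was -0.09, beside 0.07 over all listed genes. They were among the more highly expressed auxin-annotated genes, and their FPKM summed to 539 in Voyager and 645 in Albion.

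The largest difference towards Albion among all 125 genes was that of Phvul.001G156600, on chromosome 1 from 41450821 to 41453993. It is a homologue of IAA14 (SLR), whose stable form blocks lateral root formation in A. thaliana. It had 17.3 FPKM in Voyager and 63.7 FPKM in Albion, 3.69-fold lower in Voyager, with a difference of -1.83. The other IAA14 homologue, Phvul.007G109500, had 10.8 FPKM in Voyager and 18.4 FPKM in Albion, a difference of -0.72. A homologue of IAA19 (MSG2), a repressor in growth curvature of the hypocotyl, was Phvul.005G172900 with 52.5 FPKM in Voyager and 92.3 FPKM in Albion, a difference of -0.80. These were the 3 Aux/IAA genes of the rule that were at least 1.5-fold lower in Voyager as deposited, and none was at least 1.5-fold higher. With equal totals the IAA13 homologue Phvul.003G167700, at -0.63, was past this limit too.

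The repressors with the highest mean FPKM, homologues of IAA7 and IAA9, differed little. Phvul.007G176600, a homologue of IAA7 (AXR2), had 199.6 FPKM in Voyager and 212 FPKM in Albion. Phvul.002G142500, a homologue of IAA9, whose counterpart in tomato restrains fruit set before fertilization, had 193 FPKM in both genotypes. Next by mean FPKM were the IAA19 homologue Phvul.005G172900 and the IAA14 homologue Phvul.001G156600, with the differences of -0.80 and -1.83 given above. IAA18 and IAA11 homologues followed. Phvul.005G165600 (IAA18) had 31.7 FPKM in Voyager and 30.9 FPKM in Albion, and Phvul.007G189400 (IAA11) had 20.9 FPKM in Voyager and 18.6 FPKM in Albion.

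The remaining Aux/IAA genes were low. The IAA13 homologue Phvul.003G167700 had 4.94 FPKM in Voyager and 7.21 FPKM in Albion, and the IAA31 homologue Phvul.003G124600 had 5.37 FPKM in Voyager and 6.02 FPKM in Albion. A further IAA19 homologue, Phvul.010G151700, had 2.44 FPKM in Voyager and 2.55 FPKM in Albion, so the mean of its counterpart on chromosome 5 was 29.0 times as high. The lowest was the IAA30 homologue Phvul.001G218700, with 1.05 FPKM in Voyager and 0.59 FPKM in Albion, and its difference of 0.37 was the largest towards Voyager in this group. In A. thaliana IAA30 lacks, and IAA31 holds only in changed form, the part through which auxin triggers degradation.

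A further 9 genes of the table are Aux/IAA homologues by symbol or annotation, but their annotation does not hold the words of the rule. The highest was Phvul.005G173000, a homologue of IAA17 (AXR3), with 565 FPKM in Voyager and 619 FPKM in Albion, above every Aux/IAA gene of the rule. It lies 5.78 kb from the IAA19 homologue Phvul.005G172900, whose difference was larger. Likewise the IAA14 homologue Phvul.001G156600 lies 20.8 kb from an IAA4 homologue, Phvul.001G156500, which had 40.3 FPKM in Voyager and 37.3 FPKM in Albion, a difference of 0.11 beside -1.83. On chromosome 7 the IAA7 homologue lies 25.2 kb from another IAA4 homologue, Phvul.007G176700, with 10.4 FPKM in Voyager and 13.6 FPKM in Albion.

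The only gene among these 9 past the 2-fold limit was Phvul.010G147200, a homologue of IAA27 (PAP2), with 21.0 FPKM in Voyager and 6.67 FPKM in Albion and a difference of 1.52. Its counterparts Phvul.002G311500 and Phvul.004G166400 had 53.1 and 49.6 FPKM in Voyager and 53.1 and 45.0 FPKM in Albion. Homologues of IAA3 (SHY2) had 41.5 and 32.6 FPKM in Voyager and 52.8 and 41.0 FPKM in Albion for Phvul.007G109700 and Phvul.007G280300. Over all 20 Aux/IAA genes, 13 were lower in Voyager and the median difference was -0.11.

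**Figure D2:**
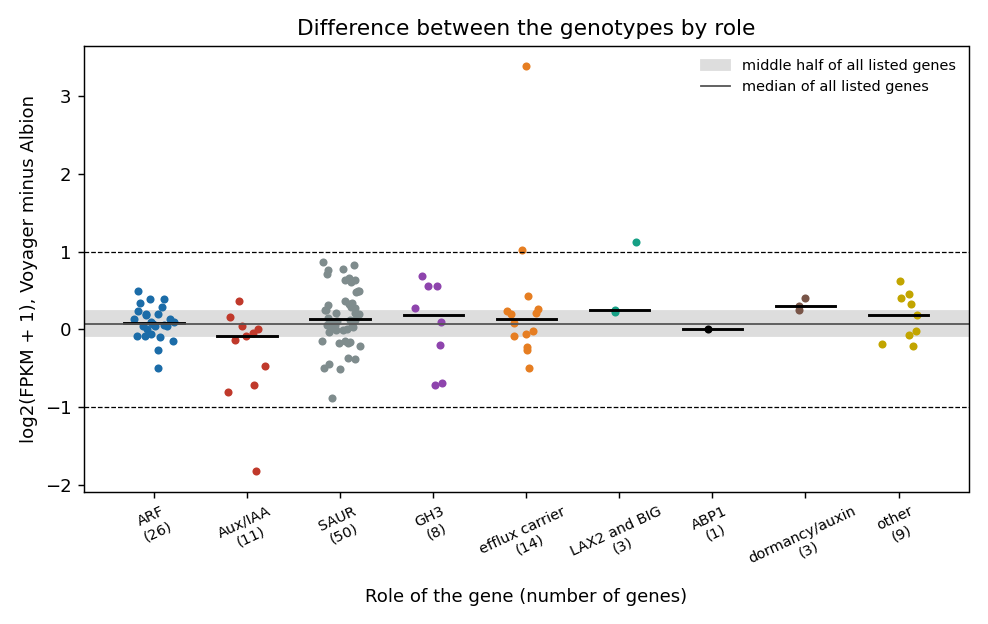
Difference in log2(FPKM + 1), Voyager minus Albion, of auxin-annotated genes grouped by role (horizontal axis, with the number of genes). Each point is a gene, black bars are medians of a role, the grey band spans the interquartile range of all listed genes and the dashed lines mark the 2-fold limits. The SAUR gene listed at 0 in Albion has no point but counts in the median. The ARF genes lie between -0.49 and 0.50, and the IAA14 homologue at -1.83 and the efflux carrier at 3.39 stand outside all others.

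Auxin response factors bind DNA at auxin response elements and switch auxin target genes on or off. As deposited, all 26 listed ARF genes lay within 1.5-fold between the genotypes, with differences from -0.49 to 0.50 and a median of 0.08. With equal totals the ARF5 homologue Phvul.001G008200, at -0.67, was past that limit. As deposited 19 of the 26 genes were higher in Voyager, but 9 were with FPKM scaled to the same total and 14 with centred differences. The spread of levels among the ARF genes was much wider than that between genotypes.

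The highest was Phvul.002G177600, a homologue of ARF8, which restrains fruit growth before fertilization in A. thaliana, with 112 FPKM in Voyager and 119 FPKM in Albion. The other ARF8 homologues, Phvul.008G242400 and Phvul.002G233600, had 43.8 and 41.0 FPKM in Voyager and 37.1 and 38.5 FPKM in Albion. ARF6, which acts with ARF8 in flower maturation, is represented by Phvul.008G197600, with 37.8 FPKM in Voyager and 35.8 FPKM in Albion. Thus the homologues of ARF6 and ARF8, both targets of the microRNA miR167, were all above 35 FPKM in each genotype.

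Homologues of ARF2, a repressor that limits seed and organ size, followed. Phvul.009G161900 had 95 FPKM in Voyager and 92.4 FPKM in Albion, Phvul.002G282200 had 74.1 FPKM in Voyager and 72.1 FPKM in Albion, and Phvul.001G202000 had 22.6 FPKM in Voyager and 17.0 FPKM in Albion. ARF3 (ETT), which patterns the gynoecium from which the pod forms, had homologues in Phvul.006G181200, with 67.2 FPKM in Voyager and 58.6 FPKM in Albion, and in Phvul.003G290200, with 10.4 FPKM in Voyager and 8.31 FPKM in Albion. The ARF4 homologue Phvul.005G136900 had 8.71 FPKM in Voyager and 7.85 FPKM in Albion. All 6 homologues of ARF2, ARF3 and ARF4 were higher in Voyager as deposited, but 3 were with FPKM scaled to the same total and 4 with centred differences, and the median difference was 0.16.

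ARF10, ARF16 and ARF17 are repressors held in check by miR160, and 6 homologues were listed. Phvul.005G134500 (ARF16) was the highest, with 28.5 FPKM in Voyager and 22.3 FPKM in Albion, and Phvul.007G095000 (ARF16) was the lowest, with 2.72 FPKM in Voyager and 2.39 FPKM in Albion. Phvul.011G080100 (ARF10) had 15.4 FPKM in Voyager and 11.6 FPKM in Albion, the largest difference of the 6 at 0.39. The median difference of these genes was 0.16.

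In A. thaliana ARF5, ARF6, ARF7, ARF8 and ARF19 are the activators of the family, and 9 homologues were listed. The largest differences of the whole family in each direction were both among them. The ARF7 homologue Phvul.004G177600 had 26.4 FPKM in Voyager and 18.4 FPKM in Albion, a difference of 0.50. The ARF5 (MP) homologue Phvul.001G008200 had 12.9 FPKM in Voyager and 18.6 FPKM in Albion, a difference of -0.49, and MP is needed for embryo axis and vein formation. Close to it lies Phvul.001G008300, likewise annotated as ARF5 but spanning only 891 bp, with 1.66 FPKM in Voyager and 2.21 FPKM in Albion, the lowest mean of the ARF genes. The ARF19 homologues Phvul.003G128800 and Phvul.009G224800 were alike, with 12.2 and 11.8 FPKM in Voyager and 13.7 and 12.7 FPKM in Albion. The 5 homologues of ARF1, ARF9 and ARF18 were led by Phvul.006G221500 (ARF1), with 25.6 FPKM in Voyager and 24.5 FPKM in Albion, and had a median difference of 0.05. The median difference of the activator homologues was -0.08 and that of the other 17 ARF genes 0.13.

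SAUR genes encode small, short-lived proteins, many of which promote cell expansion by keeping the proton pumps of the plasma membrane active. With 50 listed genes they were the largest group, and their gene models were short, with a median span of 613 bp beside 3361 bp over all listed genes. Most SAUR genes were weakly expressed, 36 of them with a mean under 10 FPKM, and the median was 4.70 FPKM in Voyager and 3.52 FPKM in Albion.

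Of the 50 SAUR genes 35 were higher in Voyager as deposited, 24 with FPKM scaled to the same total and 29 with centred differences. At the 1.5-fold limit, as deposited, 10 SAUR genes (20%) were higher in Voyager and 1 (2%) was lower, where 6.95% and 4.25% of all listed genes were. These counts depend on the scaling as well. With equal totals Phvul.011G038000 (0.48), Phvul.002G303700 (0.55), Phvul.006G116200 (0.48), Phvul.006G015200 (0.49) and Phvul.011G131500 (0.43) fell below the limit. The other SAUR genes counted as higher stayed past it. Phvul.009G049900 (-0.63) and Phvul.011G037900 (-0.67) passed it towards Albion, where Phvul.008G194200 (-1.05) stayed past it. The median difference was 0.14. The only SAUR gene past the 2-fold limit was Phvul.007G219700, on chromosome 7 from 45924925 to 45925216, which had 1.35 FPKM in Voyager and was listed at 0 in Albion, and no fold is given for it.

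The most abundant SAUR gene was Phvul.011G174700, with 55.2 FPKM in Voyager and 61.7 FPKM in Albion. Phvul.011G038000 came next, with 50.4 FPKM in Voyager and 31.4 FPKM in Albion, a difference of 0.67. Both lie on chromosome 11. Phvul.009G049900 had 26.6 FPKM in Voyager and 36.4 FPKM in Albion. Phvul.006G014900 had 39.3 FPKM in Voyager and 21.7 FPKM in Albion, a difference of 0.83. Among these 4 genes, then, 2 were higher in Voyager and 2 in Albion.

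Of the SAUR genes with lower values, Phvul.011G037400 had 2.39 FPKM in Voyager and 0.85 FPKM in Albion, with a difference of 0.87. Towards Albion the largest SAUR difference was that of Phvul.008G194200, with 5.30 FPKM in Voyager and 10.7 FPKM in Albion and a difference of -0.89. Its span of 231 bp was the shortest of all 125 genes. The lowest mean of the group was that of Phvul.002G109600, with 0.75 FPKM in Voyager and 0.39 FPKM in Albion. Further genes at least 1.5-fold higher in Voyager were Phvul.002G303700, with 6.49 FPKM in Voyager and 3.55 FPKM in Albion, and the neighbours Phvul.006G116100 and Phvul.006G116200, with 6.66 and 3.96 FPKM in Voyager and 3.49 and 2.20 FPKM in Albion.

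**Figure D3:**
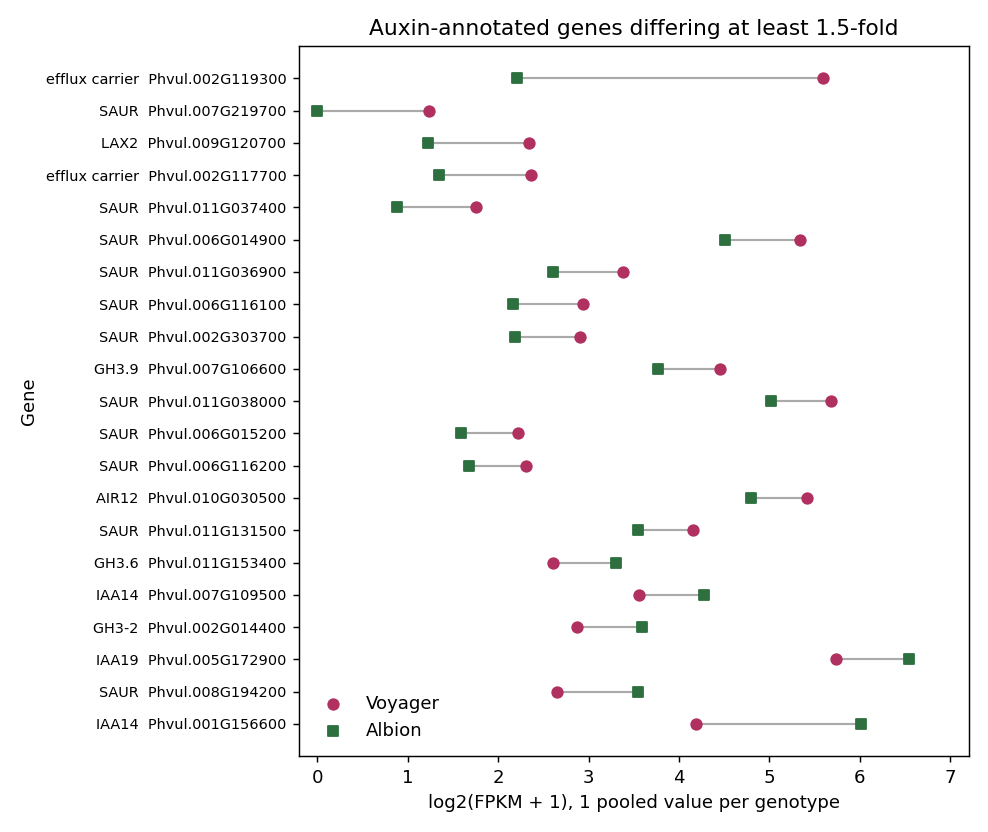
The 21 auxin-annotated genes that differed at least 1.5-fold as deposited, in the order of their difference, with log2(FPKM + 1) on the horizontal axis. Circles are the pooled value in Voyager and squares that in Albion. Voyager was higher for the upper 15 genes, 10 of them SAUR genes, and lower for the 6 at the bottom, 3 of them Aux/IAA genes.

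Many SAUR genes lay side by side. Counting auxin-annotated genes no more than 100 kb apart as neighbours, 38 of the 125 genes fell into 11 groups, and 6 of these groups had 3 or more genes and together held 25 SAUR genes. Chromosome 11 alone had 20 of the 50 SAUR genes, and its 25 auxin-annotated genes were 1.68% of its listed genes, the highest share of the 11 chromosomes.

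The largest group was on chromosome 11 from 3216239 to 3300756, where 10 of the 11 genes listed within 84.5 kb were SAUR genes. Their values ran from 0.90 to 50.4 FPKM in Voyager and from 0.35 to 31.4 FPKM in Albion. As deposited Voyager was higher for 6 of the 10 and lower for 4, so the group did not differ in 1 direction. Phvul.011G038000 at its end was the most abundant, while its neighbour Phvul.011G037900 had 10.2 FPKM in Voyager and 14.8 FPKM in Albion. Phvul.011G036900 was the other gene of the group at least 1.5-fold higher in Voyager together with Phvul.011G038000 and Phvul.011G037400, with 9.42 FPKM in Voyager and 5.08 FPKM in Albion. Phvul.011G037700 had 10.5 FPKM in Voyager and 8.65 FPKM in Albion, and the remaining members of the group were at 3.06 FPKM or less in Voyager and 2.90 FPKM or less in Albion.

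A further 5 SAUR genes lay on chromosome 11 from 29622727 to 29703973, with no other listed gene between them. Phvul.011G131500 had 16.8 FPKM in Voyager and 10.7 FPKM in Albion, and the other 4 were between 1.4 and 3.70 FPKM in Voyager and between 1.02 and 3.69 FPKM in Albion. On chromosome 9 the 4 SAUR genes from 360353 to 413651 had 1.01 to 16.2 FPKM in Voyager and 1.62 to 15.1 FPKM in Albion, with 2 higher in each genotype as deposited. The 3 on chromosome 6 from 7185636 to 7325741 were led by Phvul.006G014900, and Phvul.006G015200 had 3.67 FPKM in Voyager and 2.00 FPKM in Albion. In the same group Phvul.006G015100 had 1.54 FPKM in Voyager and 1.94 FPKM in Albion. A SAUR gene, Phvul.001G008100, with 6.70 FPKM in Voyager and 4.99 FPKM in Albion, lay beside the ARF5 homologues on chromosome 1. The last group, on chromosome 7, held Phvul.007G219700, the SAUR gene Phvul.007G219500 with 1.14 FPKM in Voyager and 1.01 FPKM in Albion, and a nucleoporin gene.

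**Figure D4:**
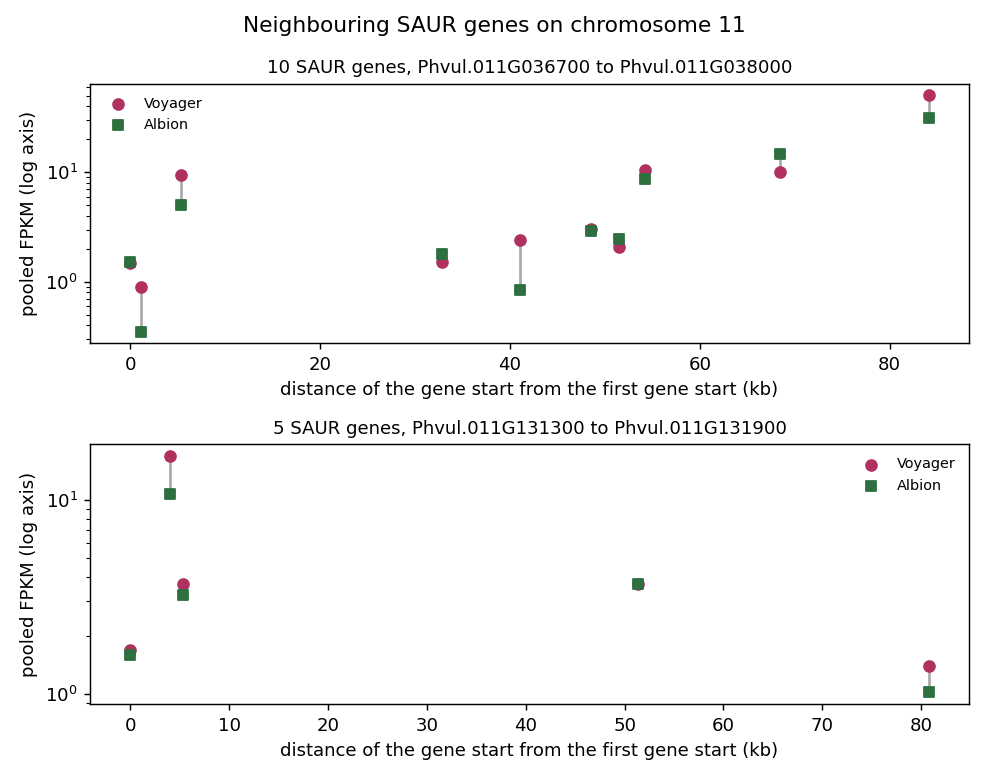
Pooled FPKM on a log axis of SAUR genes in the 2 largest groups of neighbours, both on chromosome 11, against the distance of their start from the start of the first gene in kb. Circles are Voyager and squares Albion. In the group of 10 genes levels run from 0.35 to 50.4 FPKM and the higher genotype changes from gene to gene, and in the group of 5 a single gene exceeds 10 FPKM.

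GH3 enzymes join amino acids to auxin or related acids and so lower the pool of free hormone. The 8 listed GH3 genes were weakly expressed, with a median of 4.85 FPKM in Voyager and 3.87 FPKM in Albion, and none was in the top quartile of all listed genes. Of the 8 genes, 5 were higher in Voyager and 3 lower (4 and 4 with FPKM scaled to the same total), with a median difference of 0.19.

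The most abundant was the GH3.9 homologue Phvul.007G106600, with 21.0 FPKM in Voyager and 12.7 FPKM in Albion, a difference of 0.69. A GH3.2 homologue and a GH3.6 homologue differed the other way. Phvul.002G014400 (GH3.2) had 6.32 FPKM in Voyager and 11.1 FPKM in Albion, a difference of -0.72, and Phvul.011G153400 (GH3.6) had 5.11 FPKM in Voyager and 8.85 FPKM in Albion, a difference of -0.69. The other GH3.6 homologue, Phvul.005G089200, had 4.14 FPKM in Voyager and 3.81 FPKM in Albion, a difference of 0.10.

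The GH3.1 homologue Phvul.002G083100 had 4.96 FPKM in Voyager and 3.92 FPKM in Albion, and the GH3.3 homologue Phvul.003G238700 had 4.74 FPKM in Voyager and 2.89 FPKM in Albion. Phvul.011G113000 is a homologue of GH3.10 (DFL2), known from light-controlled growth of the hypocotyl, and had 2.34 FPKM in Voyager and 1.26 FPKM in Albion. Phvul.001G147300 is a homologue of GH3.12 (PBS3), which serves the synthesis of salicylic acid and not the conjugation of auxin, and had 1.57 FPKM in Voyager and 1.95 FPKM in Albion, the lowest mean of the group.

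The most abundant genes under the rule were 2 of the 3 annotated as dormancy/auxin associated, a family first known for transcripts of dormant buds and for being repressed by auxin. Phvul.006G089000, on chromosome 6 from 20760478 to 20762169, had 1534 FPKM in Voyager and 1245 FPKM in Albion and was 44th of all listed genes by mean FPKM. Phvul.007G197700 had 519 FPKM in Voyager and 438 FPKM in Albion and was 235th. Together with Phvul.010G126600, at 2.08 FPKM in Voyager and 1.32 FPKM in Albion, all of the family were higher in Voyager under each scaling tried, with differences from 0.25 to 0.41 as deposited.

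The last 9 genes carry other annotations. The AIR12 homologue Phvul.010G030500, a cytochrome of the plasma membrane first found among auxin-induced transcripts of roots, had 41.8 FPKM in Voyager and 26.9 FPKM in Albion, a difference of 0.62. Phvul.008G136300, annotated only as an auxin-responsive family protein, had 34.4 FPKM in Voyager and 39.4 FPKM in Albion. Others with that annotation were Phvul.003G084600, with 18.4 FPKM in Voyager and 13.7 FPKM in Albion, Phvul.006G142300, with 12.6 FPKM in Voyager and 11 FPKM in Albion, and Phvul.008G286600, with 2.09 FPKM in Voyager and 2.24 FPKM in Albion. Phvul.008G270000, of the same annotation and with the lowest mean of the 9, had 2.36 FPKM in Voyager and 1.67 FPKM in Albion.

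Some genes were taken in by the words of the rule although their products serve other processes. The suppressors of auxin resistance are nucleoporins, parts of the nuclear pore, whose mutants restore auxin responses in A. thaliana. The NUP96 homologue Phvul.008G287100 had 23.9 FPKM in Voyager and 24.2 FPKM in Albion, and the NUP160 homologue Phvul.007G218900 had 16.3 FPKM in Voyager and 11.7 FPKM in Albion. Phvul.003G255200 carries the symbol AUL1, which in A. thaliana belongs to an auxilin-like protein of clathrin-coated vesicles, and had 4.23 FPKM in Voyager and 5.09 FPKM in Albion.

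Genes that act elsewhere in the auxin pathway were listed by their annotation in 7 groups of 48 genes, the Aux/IAA genes outside the rule included. Of these 48 genes, 1 (2.08%) was at least 2-fold higher in Voyager, the IAA27 homologue given above, and 0 were at least 2-fold lower, where 2.55% and 1.76% of all listed genes were. Their median difference was 0.05, beside 0.07 over all listed genes. The receptors left out by the rule were the AFB2 homologue Phvul.001G087000, with 56.6 FPKM in Voyager and 65.3 FPKM in Albion, and the AFB5 homologue Phvul.008G179000, with 27.1 FPKM in Voyager and 26.5 FPKM in Albion. Of the TOPLESS co-repressors, which Aux/IAA proteins recruit, Phvul.007G198900 (TPR3) had 90.7 FPKM in Voyager and 87.2 FPKM in Albion. The co-repressor with the largest difference, -0.53, was Phvul.001G049800 (TPR1), with 1.89 FPKM in Voyager and 3.16 FPKM in Albion.

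Auxin is made from tryptophan by aminotransferases and YUCCA flavin monooxygenases, and 6 genes carried such annotations, some of them flavin-binding monooxygenases without a YUCCA symbol. Phvul.005G030400, without a symbol, was the highest, with 27.8 FPKM in Voyager and 25.6 FPKM in Albion. The YUC2 homologue Phvul.004G163400 had 15.0 FPKM in Voyager and 7.50 FPKM in Albion, a difference of 0.91, and the YUC6 homologue Phvul.001G078900 had 1.10 FPKM in Voyager and 2.32 FPKM in Albion, a difference of -0.66. The aminotransferase homologue Phvul.009G175300 (TAR2) had 1.43 FPKM in Voyager and 0.92 FPKM in Albion.

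The list of hydrolases that release auxin from its conjugates held 10 genes, all within 1.5-fold, of which 4 are annotated only as members of the broad peptidase M20/M25/M40 family, without a symbol. The highest were of these 4, Phvul.002G007200, with 116 FPKM in Voyager and 112 FPKM in Albion, and Phvul.003G001200, with 77.7 FPKM in Voyager and 76.3 FPKM in Albion, and the largest differences were 0.38 for Phvul.010G142600 (IAR3) and 0.23 for Phvul.009G127200 (ILL6). Of the D6 protein kinases, which activate PIN carriers, and the binding proteins of the kinase PINOID, which sets PIN polarity, Phvul.008G154000 (D6PKL2) had 32.8 FPKM in both genotypes and Phvul.005G087900 (PBP1) had 36.3 FPKM in Voyager and 28.2 FPKM in Albion. In the same group the largest difference was that of another PBP1 homologue, Phvul.011G149700, with 3.84 FPKM in Voyager and 2.27 FPKM in Albion.

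The list of ABCB family transporters and of influx carriers annotated in other words held 13 genes. Several are annotated only as numbered P-glycoproteins, and whether these carry auxin was not examined. Homologues of ABCB1 (Phvul.001G179300) and ABCB19 (Phvul.004G027800), which export auxin in A. thaliana, had 40.1 and 27.2 FPKM in Voyager and 32.8 and 25.3 FPKM in Albion. The largest differences were 0.98 for an ABCB4 homologue, Phvul.003G122600, with 2.86 FPKM in Voyager and 0.96 FPKM in Albion, and 0.69 for Phvul.003G283900, annotated as P-glycoprotein 2. The LAX3 homologue Phvul.009G122200 had 4.17 FPKM in Voyager and 5.47 FPKM in Albion and so differed in the other direction than the LAX2 homologues.

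The samples were whole pods, and the paper describes unequal parts of pod wall and developing seed in the genotypes. By weight, it gives the seed a smaller part of the pod in Voyager than in Albion, and the wall a larger part. Median levels of the marker lists were 15.3 FPKM in Voyager and 12.3 FPKM in Albion for seed storage and maturation, 57.4 FPKM in Voyager and 98.2 FPKM in Albion for photosynthesis, and 7.19 FPKM in Voyager and 7.65 FPKM in Albion for secondary walls, beside 11.7 FPKM in Voyager and 11.1 FPKM in Albion over all listed genes. Of 152 genes annotated as seed storage or maturation proteins, 91 (59.9%) were higher in Voyager as deposited and 70 (46.1%) with FPKM scaled to the same total, where 61.9% and 33.4% of all listed genes were, and their deposited FPKM summed to 28477 in Voyager and 26273 in Albion. In this list 1 gene was at 0 in Voyager and 2 were in Albion. Of 88 photosynthesis genes 40 (45.5%) were higher in Voyager as deposited and 18 (20.5%) with equal totals, their FPKM summed to 19485 in Voyager and 21456 in Albion, and none was at 0. Of 76 genes of secondary cell walls 50 (65.8%) were higher in Voyager as deposited and 36 (47.4%) with equal totals, with sums of 3536 FPKM in Voyager and 3305 FPKM in Albion and 1 gene at 0, in Voyager. With equal totals the seed and wall sums in Voyager became 24897 and 3091 FPKM, below those of Albion. The part of tissue proportions in the values of the auxin-annotated genes was not tested.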

How the data were processed

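Pods of 3 replicates each of Voyager and Albion were used for RNA sequencing. After trimming, reads were aligned by the authors with TopHat 1.4.1 (Bowtie 0.12.7) against version v1.0 of the bean genome, and transcript levels were estimated in FPKM by Cufflinks 1.3.0. In the deposited file, FPKM of a gene is given once for each genotype, pooled over its replicates and rounded to 2 decimals. Each listed gene has the status OK, and other genes are not analysed here. Columns of the authors' own comparison (fold change, statistic, p-value, q-value and call) were not used. Positions are those of the table, which does not state whether starts are counted from 0 or 1. RefSeq genes of another assembly were not used, and no sequence is shown.

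Differences were computed with a pseudocount of 1 in Python 3.11 with numpy 2.4.6 and pandas 2.3.3 and were checked on simulated data. Plots were made in matplotlib 3.10.9. With 0 samples that have a value of their own, no test, error or interval was possible. Genes were named by a rule, which took genes past 2-fold or listed at 0, the 4 highest by mean FPKM, the lowest and the extremes of difference in each role, genes in groups of 3 or more neighbours, and the highest and most different genes of each pathway list. Genes named beyond it, such as the full sets of ARF8 and GH3 homologues, and the grouping of ARF genes were chosen after values were seen. Values of some efflux carriers are not reported here. The genes and lists were chosen with earlier results of these data known. The pattern for Aux/IAA genes was widened once the annotations had been seen.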

Additional observations from a re-analysis of the deposited data

How the results depend on the processing

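Scaling changed the medians most. With FPKM scaled to the same total in both genotypes the median of all genes moved to -0.11, and the median difference became -0.051 over the 125 auxin-annotated genes, -0.11 for ARF, -0.0057 for SAUR, -0.045 for efflux carriers and -0.19 for ABP1, all reversed against the deposited values, though the first, the SAUR and the efflux medians stayed above that of all genes. The numbers at least 2-fold higher and lower became 2 and 2. Centred on the median of all genes, the 125 genes had a median of 0.035 and ABP1 had -0.066. With a 1.5-fold limit 15 genes were higher and 6 lower as deposited. Counts at this limit are not given with equal totals, where the excess towards Voyager did not hold. Of 124 genes above 0 in both genotypes, 26 changed sign with equal totals and 13 with centring, none of them past 2-fold, and 0 did with a pseudocount of 0.1, which gave 6 genes at least 2-fold higher and 1 lower. A minimum mean of 1 FPKM left 3 higher and 1 lower among 116 genes. Phvul.002G119300 and Phvul.001G156600 stayed past 2-fold under each of these settings, while Phvul.002G117700 did not with either scaling and Phvul.009G120700 did not with equal totals. Leaving out genes that share a locus removed no gene, and keeping F-box annotations gave a median of 0.10. No paired analysis was possible because the table carries no replicate columns, and for the same reason no replicate could be left out. Without read numbers, the precision of low FPKM values is unknown.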

Other observations

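The listed genes on either side of the auxin-annotated genes past 2-fold were looked up after their values were seen. Beside the efflux carrier Phvul.002G119300, the next genes were an ARID/BRIGHT gene, Phvul.002G119200, with 12.7 FPKM in Voyager and 12.9 FPKM in Albion, and a FAR1-related gene, Phvul.002G119400, with 9.02 and 8.59 FPKM, so the difference of 3.39 was not shared by them. Beside the IAA14 homologue Phvul.001G156600, the IAA4 homologue and Phvul.001G156700, with 27.8 FPKM in Voyager and 23.6 FPKM in Albion, differed little. The LAX2 homologue Phvul.009G120700 stood beside genes that were also higher in Voyager. Its next neighbours were the UDP-glycosyltransferase Phvul.009G120600, with 1.86 FPKM in Voyager and 0.54 FPKM in Albion, and Phvul.009G120800, of unknown function, with 23.3 and 7.57 FPKM. One gene further, the glycosyl hydrolase Phvul.009G120500 had 23.8 FPKM in Voyager and 7.35 FPKM in Albion, while nitrate reductase 1 (Phvul.009G121000), on the other side, had 16.2 and 16.5 FPKM. These differences were 0.89, 1.51, 1.57 and -0.02 on the log2(FPKM + 1) scale, beside 1.12 for the LAX2 homologue. The outermost genes looked up, Phvul.009G120400 and Phvul.009G121100, differed little, at -0.05 and 0.06.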
